A study of Mus musculus with 4 samples.

Results

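Keratin genes were followed across 4 pools of mouse colon RNA, each measured on 1 single-colour Agilent array. The members are the genes whose symbol in the array files is Krt followed only by digits: 48 genes with 63 probes, out of 30103 genes on the array. The pools came from Pla2g10 knockout (KO) mice given 1% dextran sulfate sodium (DSS) in drinking water to day 7, wild-type (WT) mice given the same DSS, untreated (naive) KO mice and naive WT mice. DSS damages the gut epithelium and is used to model colitis, and Pla2g10 encodes group X secreted phospholipase A2. All mice were of the C57BL/6 strain, and they were 9-week-old males if the labels' age and sex tags are read as swapped, while the labels' growth protocol gives an age of 8 weeks. Colon RNA of 3 mice was pooled for each array, so each group has n = 1 and no measured spread between mice. Single pairs of pools therefore carry no p-value.

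Keratins build the intermediate filaments of epithelial cells. A type I keratin pairs with a type II keratin to form each filament, and the pairs in use mark the kind of epithelium. Krt8 pairs with Krt18, Krt19 or Krt20 in simple epithelia such as the colon lining. Krt5 with Krt14 forms the basal network of stratified epithelia, Krt1 with Krt10 replaces it in the upper epidermis, and the hair keratins belong to the hair shaft and its sheaths. The members were sorted into 4 simple-epithelium keratins (Krt8, Krt18, Krt19, Krt20), a further pair of simple keratins (Krt7, Krt23), 18 keratins of stratified epithelia, 22 of hair and hair follicle, and a pair outside these classes (Krt42, Krt222).

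Signals are given as relative signal: the processed signal, already background-subtracted, over the array's 75th percentile. The percentile itself was 2738 in KO DSS, 2318 in WT DSS, 2289 in KO naive and 2713 in WT naive. Between repeat spots of one probe the log2 SD had a median of 0.0569 to 0.0631, a measure of noise within an array only. On each array 67.7 to 70.4% of spots were well above background. Pla2g10, the targeted gene, had a relative signal of 0.993 in KO DSS and 19.0 in WT DSS, and 1.69 in KO naive and 15.8 in WT naive, so the libraries match their genotype labels. All 10 colonic epithelium markers were well above background on all 4 arrays. In pooled whole colon, fewer cells of a type and less RNA per cell cannot be told apart.

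Every simple keratin was well above background in all 4 pools, and the hair class held most of the keratins that were not. Of the 48 members, 38 had a probe well above background on at least 1 array and 33 on all 4. Of all 30103 genes on the array, 22161 did so on at least 1 array and 19321 on all 4. These 38 comprised the 4 simple keratins, Krt7 and Krt23, 16 of 18 stratified keratins, 14 of 22 hair keratins, and Krt42 and Krt222. All 16 stratified keratins that passed were measured on all 4 arrays, against 9 of the 14 hair keratins. The 10 that stayed at background everywhere were Krt25, Krt26, Krt28, Krt35, Krt39, Krt40, Krt74, Krt75, Krt76 and Krt77. The brightness of one probe cannot be set against that of another, so the classes are compared below by their ratios between pools.

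Krt8, the type II keratin of the colon lining (mm9 probe position chromosome 15, 101827138 to 101827197), gave a relative signal of 100.4 in KO DSS and 121 in WT DSS, and 122 in KO naive and 100.4 in WT naive. Its type I partner Krt18 had 50.2 in KO DSS and 69.3 in WT DSS, and 67.1 in KO naive and 56.5 in WT naive. Krt19, a type I keratin of simple epithelia, had 66.4 in KO DSS and 83.1 in WT DSS, and 80.5 in KO naive and 67.9 in WT naive. Krt20, a type I keratin of mature surface cells, had 55.4 in KO DSS and 71.3 in WT DSS, and 68.8 in KO naive and 51.6 in WT naive. All 4 genes shared a pattern: higher in WT DSS and KO naive, lower in KO DSS and WT naive. A second Krt8 probe showed it too, at 61.0 in KO DSS and 77.0 in WT DSS, and 74.2 in KO naive and 67.4 in WT naive.

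That shared pattern runs opposite to the array percentiles used for scaling, which were high in KO DSS and WT naive. The processed signal before scaling was 274920 in KO DSS and 281132 in WT DSS, and 278582 in KO naive and 272264 in WT naive for Krt8. Its highest pool was 1.03 times its lowest before scaling and 1.21 times after it. For Krt18 the corresponding ratio was 1.17 before scaling and 1.38 after it, for Krt19 it was 1.06 and 1.25, and for Krt20 it was 1.18 and 1.38. The 75th percentile itself varied 1.20-fold between arrays. None of the 4 genes reached 2-fold in any comparison under any scaling tried. The 10 colonic epithelium markers had a summed relative signal of 285 in KO DSS and 364 in WT DSS, and 362 in KO naive and 314 in WT naive, in the same order of pools within each treatment and each genotype. Their part in the keratin values was not tested, and 0 of the 10 reached 2-fold with DSS in either genotype. In KO 5.67% of all genes were at least 2-fold higher and 5.00% lower, and in WT 3.44% and 5.14%. Phgr1, the marker with the lowest mean DSS ratio among them, had 53.0 in KO DSS and 80.8 in WT DSS, and 87.6 in KO naive and 72.6 in WT naive. Cdx2, with the highest, had 8.81 in KO DSS and 10.5 in WT DSS, and 8.05 in KO naive and 6.87 in WT naive. Cdh1 had 9.66 in KO DSS and 10.5 in WT DSS, and 12.6 in KO naive and 11.6 in WT naive. Vil1 had 23.8 in KO DSS and 28.2 in WT DSS, and 32.2 in KO naive and 29.1 in WT naive.

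**Figure D1:**
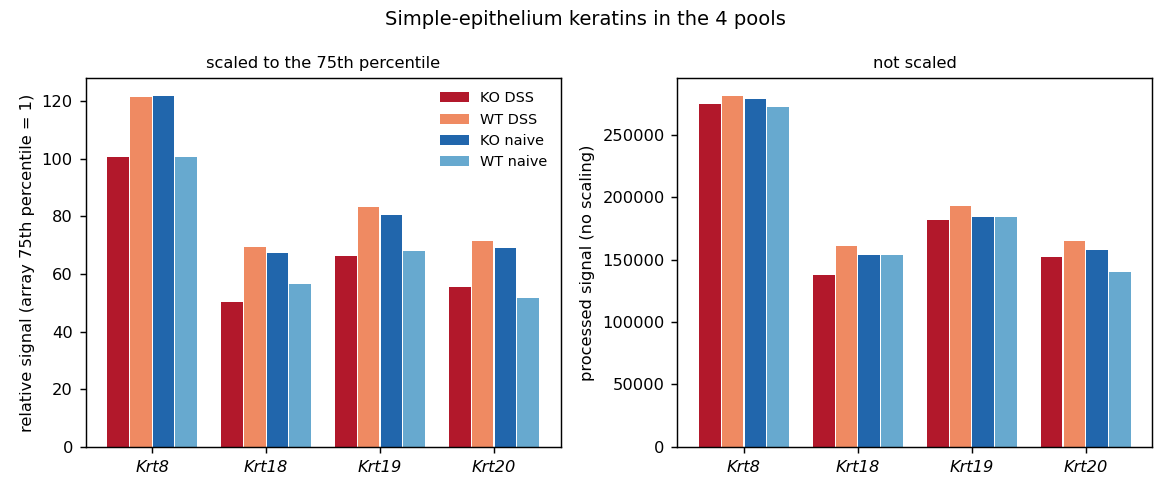
Krt8, Krt18, Krt19 and Krt20 in the 4 pools, with 1 bar per array (n = 1 each, no error bars). The left panel gives relative signal, where the 75th percentile of the array is 1, and the right panel gives the unscaled processed signal. After scaling, WT DSS and KO naive stand above KO DSS and WT naive for all 4 genes; before scaling, the 4 bars of Krt8 differ by at most 1.03-fold.

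The median log2 ratio of the 4 simple keratins was -0.30 for KO DSS over naive and 0.29 for WT DSS over naive, beside -0.13 and -0.02 over all 22161 measured genes. It was -0.34 for KO over WT with DSS and 0.26 for KO over WT in naive mice, beside -0.09 and 0.02 over all genes. With quantile normalization the simple keratin medians shrank to -0.12 for KO DSS over naive and 0.08 for WT DSS over naive, and to -0.12 for KO over WT with DSS and 0.07 for KO over WT in naive mice. The signs of these medians held under every scaling tried, and their size depended on it.

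**Figure D2:**
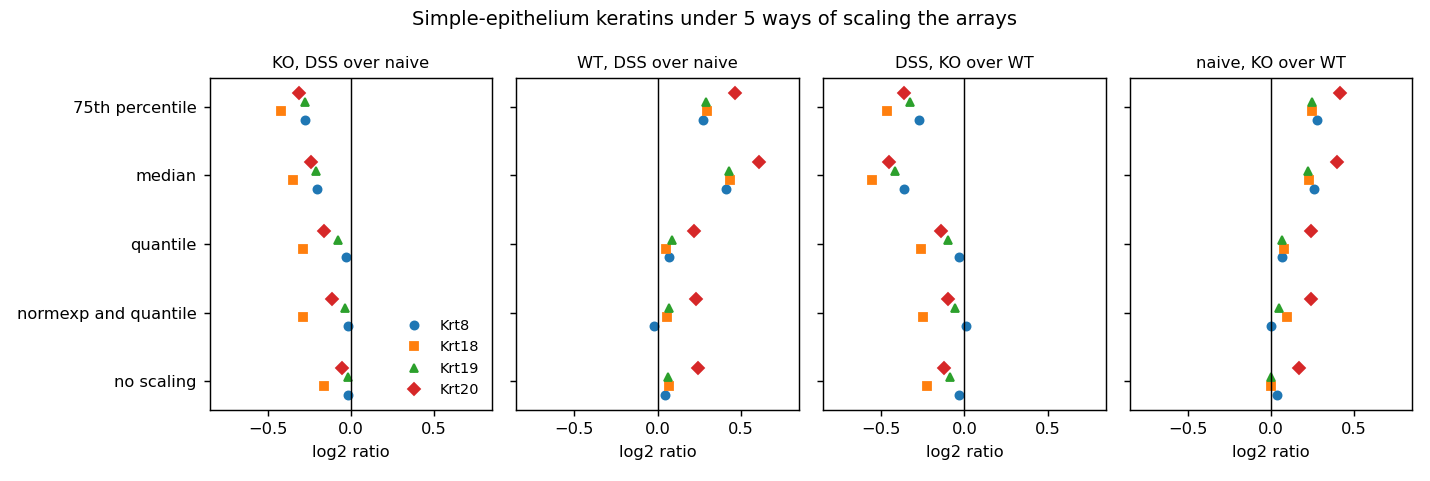
Log2 ratios of the 4 simple-epithelium keratins under 5 ways of scaling the arrays, 1 panel per comparison and 1 point per gene (n = 1 array per group). With quantile normalization, with normexp background correction or with no scaling, the points lie nearer to 0 than with the 75th percentile; Krt8 lies on the other side of 0 with normexp in each comparison but KO DSS over naive.

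The further pair of simple keratins followed the pattern of the other 4 in part. Krt7, a type II keratin of ducts and other simple epithelia, had a relative signal of 3.27 in KO DSS and 3.60 in WT DSS, and 2.60 in KO naive and 2.46 in WT naive. Both DSS pools lay above both naive pools, by 1.26-fold in KO and 1.47-fold in WT. Krt23, a type I simple keratin, had 1.59 in KO DSS and 2.25 in WT DSS, and 2.58 in KO naive and 2.29 in WT naive. Its lowest pool was KO DSS, 1.62-fold below KO naive. Krt23 departed from the pattern only in WT DSS over naive (log2 -0.026), which median scaling turned to 0.11. Krt7 departed from it in KO DSS over naive.

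All keratins counted at 2-fold belonged to the stratified or hair classes, and they lay in both directions. In KO mice 3 keratins were at least 2-fold higher with DSS (5.67% of all measured genes were) and 4 were at least 2-fold lower (5.00% of all genes). In WT mice 3 were higher (3.44% of all genes) and 3 were lower (5.14% of all genes). Both genotypes shared 2 higher keratins, Krt14 and Krt36 (1.97% of all genes were higher in both), and 1 lower keratin, Krt12 (1.57% of all genes). With no scaling Krt14 came under 2-fold in WT (log2 0.90). With normexp Krt12 came under 2-fold in both genotypes (log2 -0.98 in KO and -0.56 in WT), and 0 keratins were counted lower in either. Over the 30 stratified and hair keratins that passed, the median log2 ratio was -0.18 for KO DSS over naive and 0.20 for WT DSS over naive. These medians carry the same signs as those of the simple keratins, but with no scaling of the arrays they turned to 0.079 for KO and -0.026 for WT.

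**Figure D3:**
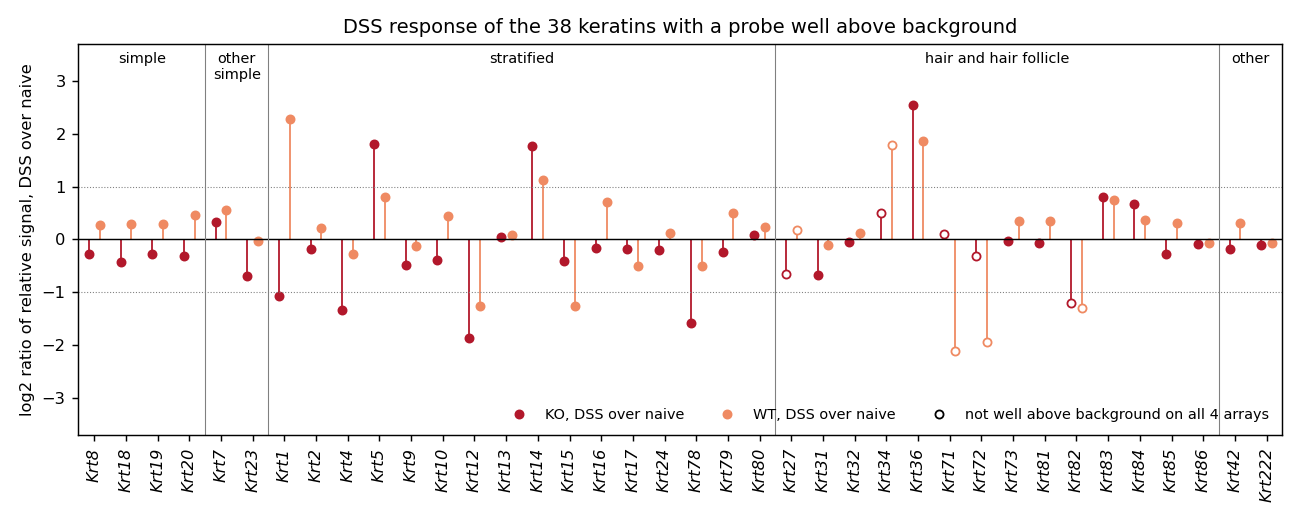
Log2 ratio of relative signal, DSS over naive, for the 38 keratins with a probe well above background, with KO left of WT for each gene (n = 1 array per group). Dotted lines mark 2-fold, and open points mark genes not well above background on all 4 arrays. Krt14 and Krt36 lie above the upper line in both genotypes, Krt12 lies below the lower line in both, and Krt1 lies beyond opposite lines.

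Krt5, the type II keratin of basal cells (mm9 probe position chromosome 15, 101537514 to 101537573), gave a relative signal of 2.25 in KO DSS and 0.796 in WT DSS, and 0.645 in KO naive and 0.457 in WT naive. Krt14, its type I partner (probe across an exon junction on chromosome 11, between 100064683 and 100065288), had 0.997 in KO DSS and 0.575 in WT DSS, and 0.293 in KO naive and 0.264 in WT naive. For both partners each DSS pool lay above both naive pools, and KO DSS was the highest pool. Krt5 was 3.48-fold higher with DSS in KO and 1.74-fold higher in WT, and Krt14 was 3.40-fold and 2.18-fold higher. With DSS, KO exceeded WT 2.82-fold for Krt5 and 1.73-fold for Krt14. A second, dim Krt5 probe was well above background in KO DSS alone.

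Krt15, another type I keratin of basal cells, had another order of pools. It had 0.126 in KO DSS and 0.0559 in WT DSS, and 0.169 in KO naive and 0.134 in WT naive. WT DSS was its lowest pool, 2.41-fold below WT naive, and KO DSS was 1.34-fold below KO naive.

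Krt36, a type I hair keratin (mm9 probe position chromosome 11, 99963330 to 99963389), had 0.623 in KO DSS and 0.426 in WT DSS, and 0.107 in KO naive and 0.118 in WT naive. It was 5.80-fold higher with DSS in KO and 3.62-fold higher in WT. A second Krt36 probe gave the same order of treatments, with 0.177 in KO DSS and 0.123 in WT DSS, and 0.0413 in KO naive and 0.0319 in WT naive. The last Krt36 probe stayed at background. The sequence of that second probe is shown beside the Krt39 probe that covers part of the same stretch, because type I keratins share long runs of bases and the Krt39 probe was not well above background in any pool. The lines run 5′ to 3′, and capitals in the Krt39 line mark bases identical to the Krt36 probe when the 2 are laid over each other without gaps (36 of 46 overlapping bases).
Krt36: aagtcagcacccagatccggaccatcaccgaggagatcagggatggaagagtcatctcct
Krt39: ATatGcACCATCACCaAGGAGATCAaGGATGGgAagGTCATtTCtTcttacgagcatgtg

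The promoters of Krt5 and Krt36 are given because both genes were higher in the DSS pools. The windows hold the 250 bases before the start of each gene in RefSeq (GRCm38.p6), chr15:101712906-101713155 on the minus strand for Krt5 and chr11:100105627-100105876 on the minus strand for Krt36. Capitals mark TATAA, the core of the TATA box. The windows were also searched for TGANTCA, the letters of an AP-1 site, and TTCNNNGAA, the letters of a STAT site, all on both strands.
Krt5: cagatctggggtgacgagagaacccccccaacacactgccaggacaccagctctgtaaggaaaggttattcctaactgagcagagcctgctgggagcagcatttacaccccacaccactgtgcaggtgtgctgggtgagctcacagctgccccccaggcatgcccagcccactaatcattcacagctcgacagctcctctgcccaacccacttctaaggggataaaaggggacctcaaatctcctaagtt
Krt36: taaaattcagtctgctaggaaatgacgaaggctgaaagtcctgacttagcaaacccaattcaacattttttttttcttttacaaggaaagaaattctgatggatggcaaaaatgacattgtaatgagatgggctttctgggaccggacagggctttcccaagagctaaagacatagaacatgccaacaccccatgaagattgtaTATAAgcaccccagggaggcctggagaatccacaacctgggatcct
TATAA matched once in the Krt36 window, beginning 46 bases before the start, and 0 times in the Krt5 window. It was in 23 of 35 windows of member keratins (65.7%) and in 22.8% of all 32851 windows in the RefSeq table. Variants of TATAA were not searched for, so 0 matches does not mean that Krt5 lacks a TATA box. TGANTCA and TTCNNNGAA matched 0 times in both windows; they were in 6.75% and 7.02% of all windows, and in 2 and 4 of the 35 keratin windows.

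Krt12, a type I keratin known from the cornea, was the keratin lower with DSS in both genotypes. It had 0.0230 in KO DSS and 0.0158 in WT DSS, and 0.0835 in KO naive and 0.0380 in WT naive, so that both DSS pools lay below both naive pools. It was 3.63-fold lower with DSS in KO and 2.40-fold lower in WT. In naive mice, KO exceeded WT 2.20-fold. A second Krt12 probe stayed at background in every pool. The signals of the first probe in both DSS pools were near the dimmest that the arrays called well above background (0.0113 to 0.0164).

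Krt1, Krt4 and Krt78 were the keratins counted at 2-fold lower in KO DSS against WT DSS. Krt1, the type II keratin of the upper epidermis (mm9 probe position chromosome 15, 101676107 to 101676166), had 0.0307 in KO DSS and 0.197 in WT DSS, and 0.0643 in KO naive and 0.0406 in WT naive. It was 2.10-fold lower with DSS in KO and 4.84-fold higher in WT, and with DSS it was 6.40-fold lower in KO than in WT. Krt10, its type I partner, had 1.00 in KO DSS and 1.66 in WT DSS, and 1.31 in KO naive and 1.23 in WT naive, with its highest pool also WT DSS and its lowest KO DSS. Krt4, a type II keratin of mucosal squamous epithelium such as the oesophagus, had 0.0218 in KO DSS and 0.0438 in WT DSS, and 0.0546 in KO naive and 0.0528 in WT naive. Krt78, a type II keratin, had 0.0235 in KO DSS and 0.0541 in WT DSS, and 0.0702 in KO naive and 0.0772 in WT naive. KO DSS was the lowest pool for both, 2.51-fold below KO naive for Krt4 and 2.99-fold for Krt78. The KO DSS signals of Krt1, Krt4 and Krt78 were close to the dimmest signal called well above background there (0.0141), and a second Krt78 probe was not well above background in KO DSS. Krt13, the type I partner of Krt4, varied little, with 1.44 in KO DSS and 1.58 in WT DSS, and 1.40 in KO naive and 1.49 in WT naive.

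**Figure D4:**
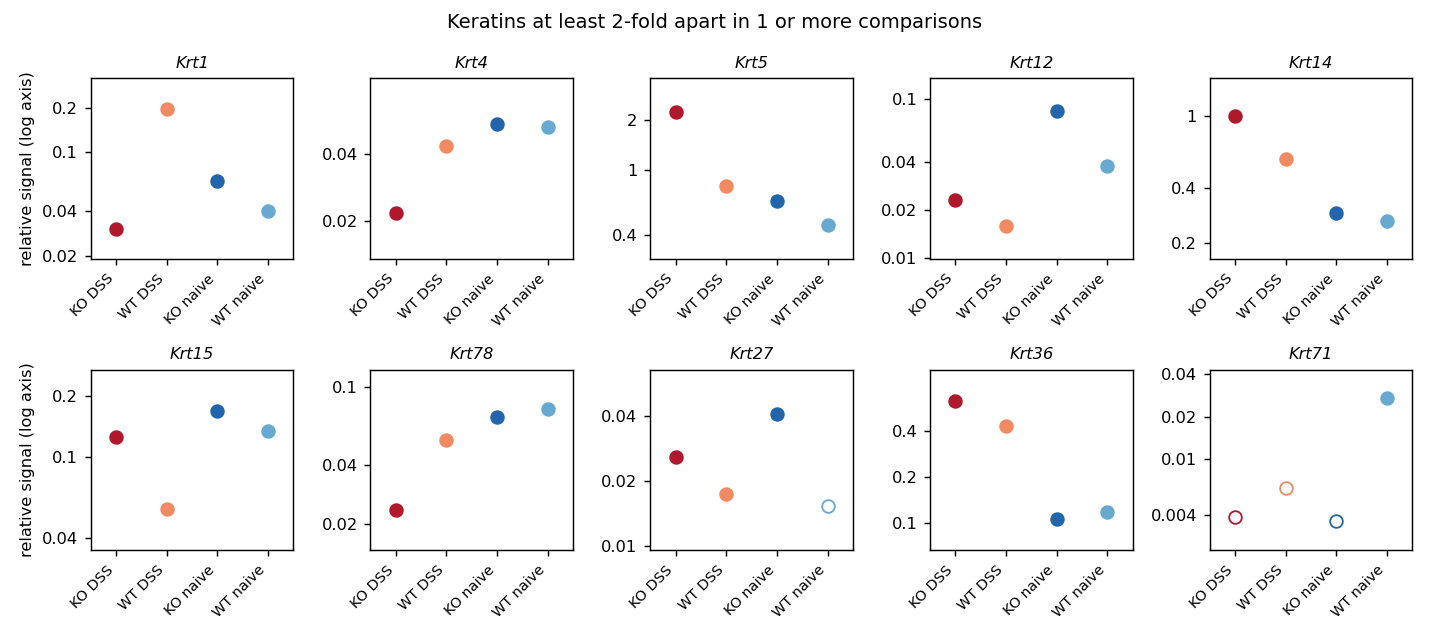
Relative signal in each pool, on log axes of their own, for the 10 keratins at least 2-fold apart in at least 1 comparison (1 array per pool, no error bars). Open points were not well above background. Krt5, Krt14 and Krt36 are highest in KO DSS, Krt1 is highest in WT DSS, and Krt4 and Krt78 are lowest in KO DSS.

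Between genotypes, with DSS 2 keratins (Krt5, Krt15) were at least 2-fold higher in KO than in WT (5.06% of all genes) and 3 (Krt1, Krt4, Krt78) were at least 2-fold lower (2.20% of all genes). Krt4 and Krt78 came under 2-fold with no scaling (log2 -0.77 and -0.96) and with normexp (-0.55 and -0.61), which left Krt1 alone. With normexp Krt15 came under 2-fold as well (log2 0.78), and 1 keratin was counted higher. In naive mice 2 keratins were at least 2-fold higher in KO (1.13% of all genes; 0 keratins with normexp) and 0 were lower (1.04% of all genes). One of the 2 was Krt12 and the other Krt27, a type I keratin of the inner root sheath. Krt27 had 0.0259 in KO DSS and 0.0174 in WT DSS, and 0.0407 in KO naive and 0.0153 in WT naive, where it was not well above background, so that it was at least 2.48-fold higher in naive KO. Krt71, a type II keratin of the same sheath, was well above background in WT naive alone, at 0.0269, and at least 2.38-fold lower in WT DSS. The difference between the DSS responses, KO minus WT, reached 2-fold for 3 of the 33 keratins measured on all arrays (Krt1, Krt4 and Krt78), while 5.67% of all such genes did. Krt1 alone was past 2-fold in opposite directions, as were 0.0983% of such genes; its KO log2 ratio of -1.07 came under 2-fold with median scaling (-0.997), quantile normalization (-0.89), no scaling (-0.81) and normexp (-0.52). With 1 array per group these differences could not be tested.

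The remaining 28 keratins that passed were counted at 2-fold in none of the 4 comparisons. Among them Krt34, Krt72 and Krt82 were well above background on 1 array each, which bounds no difference of 2-fold. Krt16 and Krt17 are keratins of wounded and activated epidermis. Krt16 had 0.374 in KO DSS and 0.578 in WT DSS, and 0.417 in KO naive and 0.354 in WT naive. Krt17 had 0.611 in KO DSS and 0.535 in WT DSS, and 0.695 in KO naive and 0.758 in WT naive. Krt6a and Krt6b, type II partners of both, lie outside the symbol rule. Krt6a had 0.179 in KO DSS and 0.129 in WT DSS, and 0.0976 in KO naive and 0.0814 in WT naive, with both DSS pools above both naive pools. Krt6b had 0.793 in KO DSS and 1.17 in WT DSS, and 0.770 in KO naive and 0.634 in WT naive.

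Because each treatment and each genotype holds 2 arrays, mean effects could be tested with an additive limma fit over all 22161 genes. The 2 arrays of a level differ in the other factor, so they are not replicates. The error of each gene comes from the difference of DSS responses between genotypes, moderated over all genes. A response that differs between genotypes enlarges it, and no SE or p-value here measures spread between mice. No keratin passed a Benjamini-Hochberg adjusted p of 0.05 for DSS, nor did any other gene (0% of all genes). The smallest keratin value was for Krt36 (log2 2.20, SE 0.25, limma adjusted p = 0.197; higher with DSS in both genotypes), and 7 keratins had an unadjusted p under 0.05, beside 18.3% of all genes. For genotype no keratin passed (smallest limma adjusted p = 0.999), 5 had an unadjusted p under 0.05 beside 3.89% of all genes, and 0% of all genes were called; with trended and robust variance 0.0316% of genes were called for genotype and again no keratin.
Calls for DSS depended on the genes fitted, the variance model and the scaling. With genes limited to those well above background on all 4 arrays, limma called 6.58% of genes, among them 4 keratins. Krt36 (adjusted p = 0.00887), Krt14 (0.0226) and Krt5 (0.0423) rose there and Krt12 (0.0185) fell. With a trended and robust variance, 7.29% of genes were called, and with them Krt36 (adjusted p = 0.00286), Krt14 (0.0100) and Krt12 (0.0323), but not Krt5 (0.0626). With no scaling of the arrays 3.97% of genes were called for DSS, among them Krt36 (adjusted p = 0.00683) and Krt12 (0.0243), and 0.447% for genotype, with no keratin among them.

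Several bright keratin signals rested on a single probe. The first Krt42 probe had 22.3 in KO DSS and 28.9 in WT DSS, and 25.4 in KO naive and 23.3 in WT naive, while the second Krt42 probe stayed at background. One Krt85 probe, which the files map to no position, had 11.1 in KO DSS and 15.5 in WT DSS, and 13.4 in KO naive and 12.5 in WT naive, while the other Krt85 probes lay between 0.155 and 0.292. Both had the same order of DSS and naive pools within each genotype as the simple keratins. One Krt222 probe had 4.34 to 4.68 and the other stayed at background.
The bright Krt42 probe is shown because its bases recur in part in a probe of another keratin, again 5′ to 3′ with capitals for bases identical to the first line. The Krt28 probe matched the Krt42 probe in 41 of 58 overlapping bases; both are type I keratins, and the Krt28 probe was at background.
Krt42: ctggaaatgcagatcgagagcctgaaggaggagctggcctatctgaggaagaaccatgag
Krt28: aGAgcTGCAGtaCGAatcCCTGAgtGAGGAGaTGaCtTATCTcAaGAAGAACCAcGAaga
Whether the bright Krt42 and Krt85 probes bind transcripts of other keratins was not tested. Leaving out the bright Krt42 and Krt85 probes took Krt42 out of the measured genes and changed no count at 2-fold.

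Genes for proteins that anchor or bind keratin filaments, mostly at desmosomes, formed a list of 25, of which 22 were measured. In KO 2 of the 22 were at least 2-fold higher with DSS (5.67% of all genes) and 2 lower (5.00% of all genes). Their median log2 ratio in KO was -0.29, beside -0.13 over all genes. In WT 2 were higher (3.44% of all genes) and 2 lower (5.14% of all genes), with a median of -0.22 beside -0.02. Eppk1, which encodes the keratin-binding plakin epiplakin, had 2.40 in KO DSS and 2.48 in WT DSS, and 6.77 in KO naive and 6.77 in WT naive. Evpl, which encodes envoplakin, had 4.58 in KO DSS and 4.66 in WT DSS, and 10.8 in KO naive and 10.6 in WT naive. Both DSS pools lay below both naive pools, and the genotypes lay close together. Sfn, which encodes the keratin-binding 14-3-3 sigma, had 1.79 in KO DSS and 1.77 in WT DSS, and 0.943 in KO naive and 0.990 in WT naive. Trim29, a gene of basal epithelial cells, had 0.134 in KO DSS and 0.166 in WT DSS, and 0.0643 in KO naive and 0.0503 in WT naive. Col17a1, a hemidesmosome collagen gene, had 0.0312 in KO DSS and 0.0140 in WT DSS, and 0.00560 in KO naive and 0.00516 in WT naive, both of these not well above background. Itgb4, Plec and Dst, also of hemidesmosomes, had DSS log2 ratios of -0.64, -0.64 and -0.19 in KO and -0.32, -0.49 and -0.56 in WT. Itga6, another hemidesmosome gene, had -0.25 in KO and 0.15 in WT. In the limma fit with trended and robust variance Eppk1 (adjusted p = 0.00223) and Evpl (0.00660) fell, and Sfn (0.0131) and Trim29 (0.0201) rose; none passed in the fit with neither (adjusted p of 0.197 to 0.207).

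**Figure D5:**
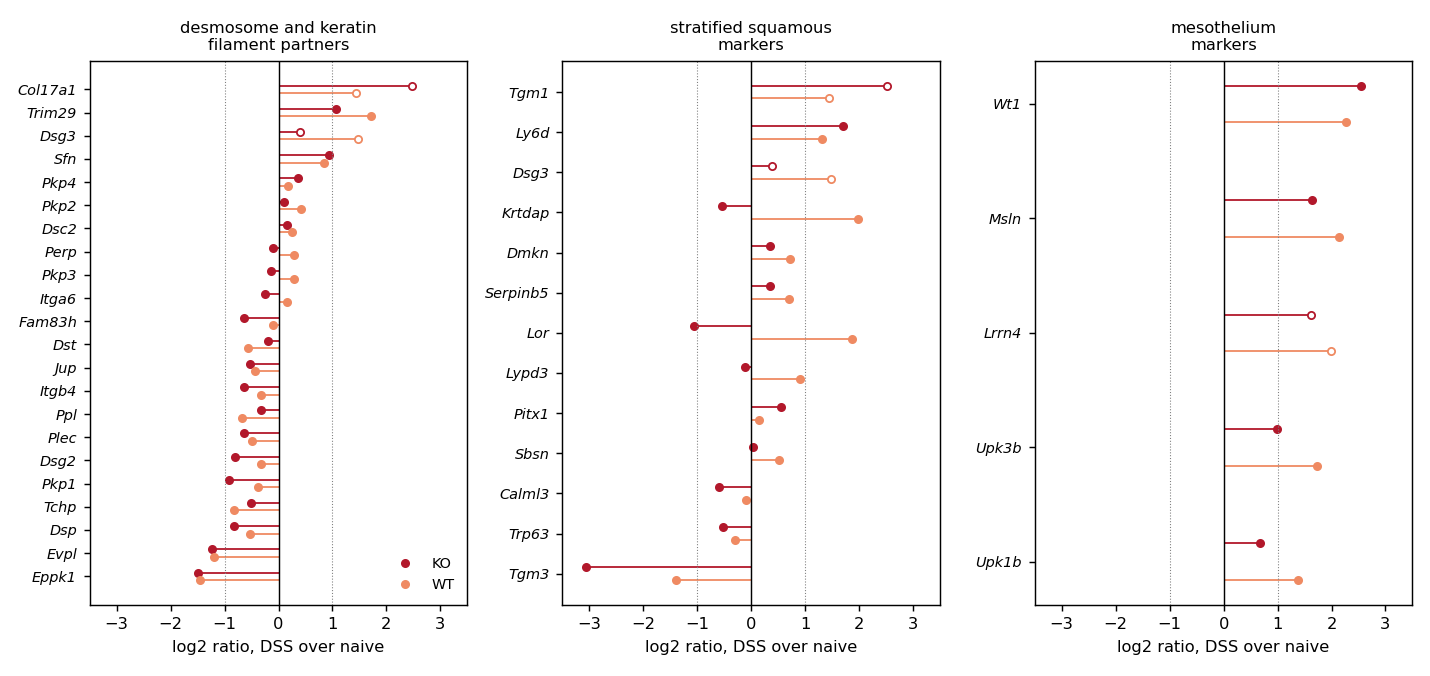
Log2 ratios, DSS over naive, of the measured desmosome and keratin filament partners, stratified squamous markers and mesothelium markers, with KO above WT for each gene (n = 1 array per group). Dotted lines mark 2-fold, and open points mark genes not well above background on all 4 arrays. Eppk1 and Evpl lie past the lower 2-fold line in both genotypes, and all 5 mesothelium markers lie above 0. Lor lies beyond 2-fold on opposite sides, in KO only just (log2 -1.05).

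Markers of other epithelia varied beside the stratified keratins, and their part in the keratin values was not tested. Of 16 stratified squamous markers 13 were measured, with a summed relative signal of 21.1 in KO DSS and 24.8 in WT DSS, and 21.6 in KO naive and 21.5 in WT naive. With DSS 2 were at least 2-fold higher in KO (5.67% of all genes) and 2 lower (5.00% of all genes). In WT 4 were higher (3.44% of all genes) and 1 lower (5.14% of all genes). The desmosomal cadherin genes Dsg1a and Dsc3 and the envelope gene Ivl were at background on all 4 arrays. Ly6d, a surface protein gene of squamous cells, had 2.92 in KO DSS and 1.41 in WT DSS, and 0.897 in KO naive and 0.564 in WT naive, the same order of pools as Krt5. Krtdap, a gene of differentiating keratinocytes, had 0.0999 in KO DSS and 0.327 in WT DSS, and 0.146 in KO naive and 0.0832 in WT naive, with its highest pool WT DSS like Krt1. Tgm1, an epidermal transglutaminase gene, had 0.0676 in KO DSS and 0.0279 in WT DSS, and 0.0118 in KO naive and 0.0103 in WT naive, where it was not well above background. Its highest pool was KO DSS, 2.43-fold above WT DSS and at least 4.40-fold above KO naive. Tgm3, a further epidermal transglutaminase gene, had 0.675 in KO DSS and 2.67 in WT DSS, and 5.62 in KO naive and 7.01 in WT naive. Dmkn, which encodes dermokine, had 0.856 in KO DSS and 0.992 in WT DSS, and 0.675 in KO naive and 0.599 in WT naive. Trp63, a gene of basal cells in the list, had a DSS log2 ratio of -0.52 in KO and -0.29 in WT. Lor, an envelope gene, had 0.158 in KO DSS and 0.856 in WT DSS, and 0.329 in KO naive and 0.235 in WT naive. Between the DSS pools, 9 of the 13 markers were lower in KO than in WT and 4 were higher. The median log2 ratio of the 13 there was -0.25, beside -0.09 over all genes.

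All 5 mesothelium markers were measured, with a summed relative signal of 1.32 in KO DSS and 1.17 in WT DSS, and 0.423 in KO naive and 0.287 in WT naive. With DSS 3 of the 5 were at least 2-fold higher in KO (5.67% of all genes) and all 5 in WT (3.44% of all genes). Wt1, a transcription factor gene of mesothelium, had 0.257 in KO DSS and 0.150 in WT DSS, and 0.0439 in KO naive and 0.0310 in WT naive. Msln, which encodes mesothelin, had 0.842 in KO DSS and 0.759 in WT DSS, and 0.270 in KO naive and 0.173 in WT naive. Lrrn4 had 0.0594 in KO DSS and 0.0601 in WT DSS, and 0.0194 in KO naive and 0.0151 in WT naive. Upk3b had 0.0660 in KO DSS and 0.0885 in WT DSS, and 0.0331 in KO naive and 0.0268 in WT naive. Upk1b had 0.0911 in KO DSS and 0.109 in WT DSS, and 0.0574 in KO naive and 0.0417 in WT naive. Upk3b and Upk1b were the members under 2-fold in KO. Of 9 hair follicle markers 5 were measured, summing to 0.336 in KO DSS and 0.352 in WT DSS, and 0.490 in KO naive and 0.379 in WT naive. Hoxc13, Krtap16-1, Dsg4 and Padi3 were at background on all 4 arrays. Krtap3-1, a keratin-associated protein gene of the hair shaft, had 0.0312 in KO DSS and 0.0620 in WT DSS, and 0.107 in KO naive and 0.0566 in WT naive. Lef1 had 0.161 in KO DSS and 0.137 in WT DSS, and 0.227 in KO naive and 0.163 in WT naive. Msx2 had 0.0757 in KO DSS and 0.0900 in WT DSS, and 0.0911 in KO naive and 0.0923 in WT naive. Tchh had 0.0531 in KO DSS and 0.0440 in WT DSS, and 0.0419 in KO naive and 0.0468 in WT naive. Of 3 urothelium markers Upk1a alone was measured, at 2.03 in KO DSS and 3.15 in WT DSS, and 3.87 in KO naive and 3.48 in WT naive.

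Intermediate filament genes of other tissues were all measured, 14 of 14. With DSS 2 were at least 2-fold higher in KO (5.67% of all genes) and 2 lower (5.00% of all genes). In WT 2 were higher (3.44% of all genes) and 0 lower (5.14% of all genes). Gfap, of glia, had 0.172 in KO DSS and 0.133 in WT DSS, and 0.0418 in KO naive and 0.0627 in WT naive. Synm, of muscle, had 3.04 in KO DSS and 5.65 in WT DSS, and 9.04 in KO naive and 10.1 in WT naive. Des, its filament partner in muscle, had 2.65 in KO DSS and 4.83 in WT DSS, and 5.34 in KO naive and 6.56 in WT naive. Lmnb1, of the nuclear lamina, had 1.36 in KO DSS and 1.47 in WT DSS, and 0.954 in KO naive and 0.639 in WT naive.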

How the data were processed

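RNA of 4 pools was measured on 4 arrays that share 1 slide and 1 scan time, per the file headers, and animal cohorts and RNA preparation were not recorded there, so they cannot be told apart from the groups. The deposited scanner files give each spot's intensity, background-subtracted and detrended by the scanner software (the processed signal); Agilent Feature Extraction 11.5.1.1 is named in the submitters' processing notes. Signal values in the deposited series table equal the processed signal divided by a constant near each array's 75th percentile, as the values show. Probe positions are mm9 per the file headers. From the deposited intensities, log2 values were set relative to each array's 75th percentile over spots other than controls and outlier flags. Spots of a probe were averaged, 28719 of 39377 probes passed a filter (well above background in 1 or more pools), and the brightest kept probe stood for its gene. Symbols were updated through RefSeq (GRCm38.p6); Krt83 of the files is Krt87 there, and 34 members had a promoter window in the RefSeq table.

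Keratins were counted at 2-fold where the higher array was well above background. Where the lower array was not, the fold was taken against that array's dimmest signal called well above background or the probe's own signal, whichever was higher, and is written as at least; the fit used the measured values. The additive model (treatment and genotype, 1 residual degree of freedom) used limma 3.58.1 in R 4.3.3 with Benjamini-Hochberg adjustment over all genes. Its code was run on simulated data with additive DSS changes and independent noise. No DSS response was made to differ between genotypes there, so that run gives no error rate for these arrays. Tables were handled in Python 3.11.15 with pandas 2.3.3 and numpy 2.4.6. No intervals are given, because the number of arrays limits the precision.

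Members, classes and lists were chosen with earlier results of these data known. Values in every pool are given for all simple keratins and for each other keratin at least 2-fold apart in a comparison. From each list they are given for up to 4 members with the largest absolute mean DSS log2 ratio. Only members that each of the 4 arrays called well above background counted for this. Any member at least 2-fold apart with DSS in both genotypes was included too, and other list members are given by counts. Krt10, Krt13, Krt16, Krt17, Tgm1, Lor and Col17a1, and the log2 ratios of Trp63, Plec, Dst, Itga6 and Itgb4, were added after their values were seen. Alternatives were median scaling, quantile normalization, normexp (offset 50) with quantile normalization, the mean of probes, only genes well above background on all 4 arrays, the deposited series table, the measured dim value in place of the bound, 1.5-fold, and trended and robust variance. No scaling, and leaving out a bright probe each of Krt42 and Krt85, were added after seeing the data.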

Additional observations from a re-analysis of the deposited data

Results flagged for a closer look

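Krt1 lay in opposite directions with DSS: its log2 ratio was -1.07 in KO and 2.28 in WT, a difference of -3.34. It was singled out because the single pool of each genotype moved past 2-fold one way and the other. The difference was not tested, since each group has 1 array and Krt1 has 1 probe. Of the 19321 genes well above background on all 4 arrays, 19 (0.0983%) moved at least 2-fold in opposite directions. Over the 9 settings that gave a value, the Krt1 log2 ratio ran from -1.07 to -0.52 in KO and from 1.81 to 2.45 in WT; in KO it was under 2-fold with median scaling, quantile normalization, normexp and no scaling.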

How the results depend on the processing

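All directions of called keratins held under every alternative run. The simple keratin medians moved with scaling. For KO DSS over naive the median was -0.22 with median scaling, -0.12 with quantile normalization, -0.075 with normexp and -0.037 with no scaling. For WT DSS over naive it was 0.43, 0.078, 0.061 and 0.066 in the same order. For KO over WT with DSS it was -0.44, -0.12, -0.078 and -0.10. For naive KO over WT it was 0.073 with quantile normalization, 0.071 with normexp and 0.018 with no scaling. With no scaling the median of all genes itself shifted to 0.13, -0.24, 0.15 and -0.22 in these 4 comparisons, and with median scaling that for WT DSS over naive was 0.12.

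Counts of keratins moved as follows. No share of all genes is given beside these fold counts, so they cannot be set against all genes. With normexp 0 were lower with DSS in KO and 0 in WT, 1 higher and 1 lower in KO over WT with DSS, and 0 higher in naive KO. With genes well above background on all 4 arrays 1 was higher in naive KO, and limma called 4 for DSS (3 with trended and robust variance, 2 with no scaling). With no scaling 1 was higher and 1 lower in naive KO over WT, 1 lower in KO over WT with DSS, and 5 differed 2-fold in response. With measured dim values 2 were lower in naive KO. At 1.5-fold 5 were higher and 8 lower with DSS in KO, 6 higher in WT, 4 higher and 6 lower in KO over WT with DSS, and 1 lower in naive KO. The cause of these shifts was not tested. The mean of probes, the series table and leaving out the bright Krt42 and Krt85 probes moved no count by over 1.5 times. No paired analysis was possible because each group has 1 array. Krt1, Krt4, Krt12, Krt27, Krt71 and Krt78 are limited by signals near background.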

Other observations

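The RefSeq table names another pair of keratins that the array files list under clone names, so they lie outside the symbol rule; they were looked up after their values were seen. Krt90, a type II keratin, had a relative signal of 0.206 in KO DSS and 0.0485 in WT DSS, and 0.0121 in KO naive and 0.00746 in WT naive, well above background in both DSS pools alone. It was at least 13.4-fold higher with DSS in KO and at least 2.96-fold higher in WT. Krt90 passed the filter through the DSS pools alone, so no limma result is given for it. Krt88 was well above background in KO DSS alone, at 0.0255.

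Another Krt85 probe, at chromosome 15, 101261695 to 101261754 (mm9), lies close to the Krt83 probe at 101263556 to 101263615 and away from the mapped Krt85 probe at 101346117 to 101346176. It had 0.257 in KO DSS and 0.292 in WT DSS, and 0.155 in KO naive and 0.172 in WT naive. Krt83 had 0.0454 in KO DSS and 0.0496 in WT DSS, and 0.0259 in KO naive and 0.0294 in WT naive. Both probes were higher in both DSS pools than in both naive pools. The mapped Krt85 probe had 0.229 in KO DSS and 0.256 in WT DSS, and 0.247 in KO naive and 0.240 in WT naive.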
